A study of Mus musculus with 458 samples.

Results

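The 10 transcription factors described here set up the megakaryocyte and erythroid programmes of blood. They are Gata1, Gata2, Tal1, Lyl1, Zfpm1, Gfi1b, Runx1, Fli1, Nfe2 and Klf1. They were taken by gene symbol from the 22645 symbols of the expression table, and all 10 were in it. Their RNA was followed in 458 single haematopoietic stem cells (HSCs) from 6 mice.

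The HSCs came from C57BL/6 mice, and each recipient had been transplanted with a single bone marrow HSC positive for Vwf, so that the donor-derived HSCs of a mouse belong to 1 clone. They were index sorted from recipient marrow as LSK CD150+CD48-CD45.2+, where LSK is a lineage-negative, Sca-1-positive, Kit-positive gate and CD45.2 marks the donor. The PLT group (177 cells, 2 mice) held clones that gave platelets alone over 16 weeks. The PEM group (118 cells, 2 mice) held clones that gave platelets, erythrocytes and myeloid cells, and the MUL group (163 cells, 2 mice) held clones that gave all lineages. The labels give no age and name no drug or other allele. Mice are numbered 1 and 2 within a group, and the number pairs no mice. PEM mouse 2 had 25 cells, against 78 to 93 in each other mouse. Both MUL mice came from 1 experiment and each other mouse from its own, so that experiment and group cannot be told apart.

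GATA factors bind the sequence GATA in regulatory DNA and work with Tal1 or Lyl1, which bind E-boxes as partners of E proteins. Gata2 acts early in stem and progenitor cells and is replaced by Gata1 as megakaryocyte and erythroid cells mature. Fli1 and Klf1 are known for opposing each other at the split between the megakaryocyte and erythroid branches, while Nfe2 drives late platelet formation.

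Depth was similar between mice, with a median of 4.28 to 5.32 M mapped reads per cell, and cells ranged from 1.3 to 17.3 M. The authors' count of detected genes had a median per mouse of 1869 and 2596 in PLT mice, 3186 and 2752 in PEM mice, and 2210 and 2553 in MUL mice, so both PEM mice stood highest. Of the gate's own markers, Kit was at 1 RPKM or more (a read count divided by gene length and by the depth of the cell) in 34.4% to 75.3% of the cells of a mouse, and Slamf1, which encodes CD150, in 4.71% to 37.6%. Cd48 was at that level in 0% to 2.15% of cells. Sorted cells also held transcripts of mature cells: at least 3 of 12 mature erythroid markers were at 1 RPKM or more in 0% to 12% of the cells of a mouse, and at least 3 of 14 neutrophil markers in 1.19% to 14.0%. Of 10 mast cell and basophil markers, 7 were at 0 in every cell, the mast cell proteases Cma1, Tpsb2 and Mcpt4 among them.

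A factor was counted as detected in a cell at 1 RPKM or more. The values of all 10 factors were whole numbers of reads once scaled, within 0.05 of a read, for every value under 60 reads. At 1 RPKM a median cell held 5.67 reads of Klf1, 7.03 of Gata1 and 27.2 of Runx1. Reads are copies of amplified cDNA and not molecules, so shares and their exact Clopper-Pearson 95% intervals cover counting error only.

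The genes lie on 8 chromosomes of the mm10 build, per GENCODE M21. Gata1 spans chrX:7959260-7978071 on the minus strand, Gfi1b spans chr2:28609450-28621982 on the minus strand and Lyl1 spans chr8:84701457-84704715 on the plus strand. In Runx1, 106 of 12025 exon bases also lie in the antisense gene Gm26626, which is 0.881%, and in Lyl1 4 of 1800 lie in an exon of Nfix on the other strand. The remaining 8 factors share no exon base with another annotated gene. Whether reads were counted by strand is not given in the sources used here.

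RefSeq promoter windows on GRCm38.p6, the same build, were held for 8 of the 10 factors. The 250 bases before the start site are shown for Gata1, Gfi1b and Lyl1, because Gata1 with Gfi1b, and Gfi1b with Lyl1, were among the 4 pairs of factors that correlated most over single cells before detected genes and reads were taken out. Sequences run 5′ to 3′ along the gene, and capitals mark a GATA site or an E-box. A GATA site was the letters AGATAA on either strand, the same with the other purine at its end (AGATAG), or the forms that open with thymine, which are TGATAA and, with the other purine, TGATAG. An E-box was CANNTG, which reads alike on both strands. The windows hold no annotated exon base.
Gata1, chrX:7967911-7968160, minus strand: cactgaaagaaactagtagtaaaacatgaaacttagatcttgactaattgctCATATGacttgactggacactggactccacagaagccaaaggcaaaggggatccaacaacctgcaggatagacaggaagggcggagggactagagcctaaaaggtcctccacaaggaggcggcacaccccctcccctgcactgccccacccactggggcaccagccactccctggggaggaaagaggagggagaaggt
Gfi1b, chr2:28621983-28622232, minus strand: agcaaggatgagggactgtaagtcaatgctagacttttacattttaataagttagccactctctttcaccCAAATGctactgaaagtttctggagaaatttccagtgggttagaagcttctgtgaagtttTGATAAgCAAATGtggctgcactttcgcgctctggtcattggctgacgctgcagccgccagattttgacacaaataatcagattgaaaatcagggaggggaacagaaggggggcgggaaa
Lyl1, chr8:84701207-84701456, plus strand: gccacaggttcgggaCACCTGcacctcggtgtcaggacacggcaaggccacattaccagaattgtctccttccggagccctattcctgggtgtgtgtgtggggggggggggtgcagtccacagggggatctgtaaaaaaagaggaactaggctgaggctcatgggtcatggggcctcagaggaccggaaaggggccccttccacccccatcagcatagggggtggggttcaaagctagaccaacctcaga
The Gfi1b window holds TGATAA at position -120 from the start site and E-boxes at -180 and -113, none of which overlap. The Gata1 window holds an E-box at -198 and the Lyl1 window one at -235, and neither holds a GATA match. Of 32851 promoter windows of the same length, 26.5% held a GATA match and 66.2% an E-box, against 3 and 5 of the 11 windows of the 8 factors (some have more than 1 start). A match is a string of letters and no evidence of binding.

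Across the mice, Nfe2 and Fli1 were the 2 most abundant factors and were found in most cells, while the other 8 were found in a minority of cells on average. Nfe2 averaged 293.5 ± 138 RPKM and Fli1 140.9 ± 64.4 RPKM (mean ± SD of 6 mouse means). Gfi1b followed at 96.8 ± 69.0, Lyl1 at 51.0 ± 29.4, Gata2 at 32.5 ± 13.8, Klf1 at 21.4 ± 29.7, Gata1 at 12.4 ± 7.08, Runx1 at 10.5 ± 3.56, Tal1 at 9.69 ± 2.23 and Zfpm1 at 1.98 ± 1.56 RPKM. In this order of levels per length, neighbours mostly did not differ beyond their spread over mice: Nfe2 was above Fli1 in 4 of 6 mice, Fli1 above Gfi1b in 4, Gfi1b above Lyl1 in 4 and Gata1 above Runx1 in 4. Lyl1 was above Gata2 in 5, with a gap of means within the SD of Lyl1. Tal1, above Zfpm1 in 6 of 6 mice, was the exception. Klf1 held its place through a few cells and was above Gata1 in 2 of 6 mice.

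**Figure D1:**
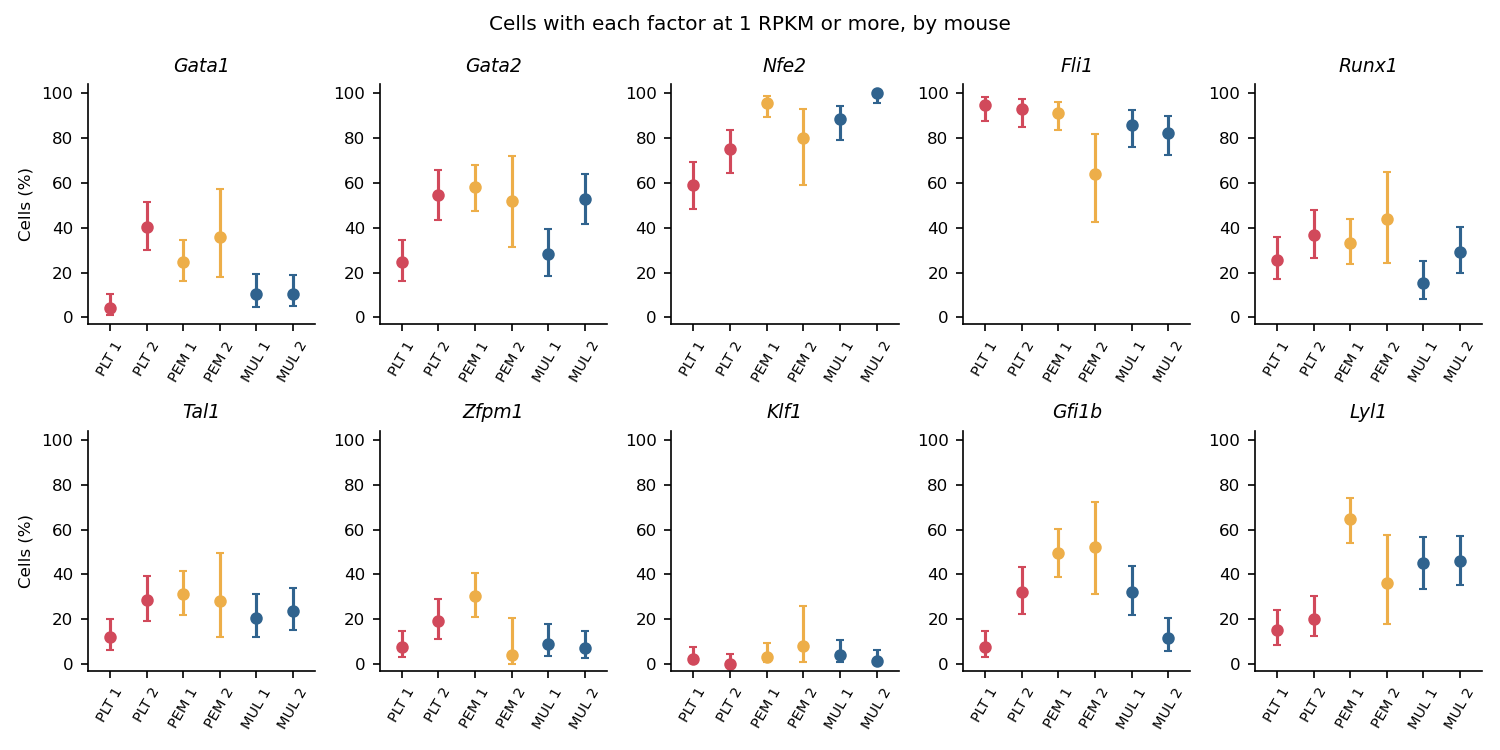
Percent of the cells of each mouse with a factor at 1 RPKM or more (y axis), for the 2 PLT (red), 2 PEM (yellow) and 2 MUL mice (blue). Points are mice and bars are exact 95% binomial intervals for counting error. Fli1 and Nfe2 are in most cells of every mouse, and Klf1 reaches 8% in the mouse with its highest share.

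Gata1, the factor needed for both platelet and red cell maturation, differed most between the 2 mice of 1 group. It was detected in 4.30% and 40.5% of the cells of PLT mice 1 and 2, against 24.7% and 36% of the cells of PEM mice and 10.3% and 10.6% of the cells of MUL mice. The PLT mice thus held both the lowest and the highest share, and the PEM mice lay above the MUL mice without overlap. Mean levels were 4.23 and 16.8 RPKM in PLT mice, 18.7 and 19.8 RPKM in PEM mice, and 10.3 and 4.30 RPKM in MUL mice. In PLT mouse 1 a single cell carried 96.3% of the summed Gata1. Among cells with Gata1, the median level was 11.8 RPKM in PLT mouse 2, 16.6 and 12.3 RPKM in PEM mice, and 24.4 and 28.2 RPKM in MUL mice, with PLT mouse 1 left out for its 4 such cells. The MUL mice had smaller shares of these cells than the other 3 mice and the highest level in them.

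Zfpm1 encodes FOG1, the cofactor that binds Gata1. It was in 7.53% and 19.0% of the cells of PLT mice, 30.1% and 4% of the cells of PEM mice, and 8.97% and 7.06% of the cells of MUL mice. Its mean level was 2.05 and 4.03 RPKM in PLT mice, 3.67 and 0.40 RPKM in PEM mice, and 0.80 and 0.90 RPKM in MUL mice. Both PLT mice were above both MUL mice in level and overlapped with them in share.

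Gata2, the GATA factor of stem and early progenitor cells, was detected in more cells than Gata1 in all 6 mice. It was in 24.7% and 54.8% of the cells of PLT mice, 58.1% and 52% of PEM mice, and 28.2% and 52.9% of MUL mice, with groups that overlap. Its median level among those cells was 34.0 and 29.3 RPKM in PLT mice, 70.1 and 6.89 RPKM in PEM mice, and 73.0 and 64.8 RPKM in MUL mice. PEM mouse 2 was thus lowest in level although its share was like that of 3 other mice.

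Tal1, a basic helix-loop-helix partner of the GATA factors, had the narrowest spread of the 10 relative to its mean level. It measured 8.92 and 13.9 RPKM in PLT mice, 9.78 and 7.66 RPKM in PEM mice, and 9.70 and 8.17 RPKM in MUL mice. The groups overlap, and its share of cells was 11.8% and 28.6% in PLT mice, 31.2% and 28% in PEM mice, and 20.5% and 23.5% in MUL mice.

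Lyl1, the close relative of Tal1 that can stand in for it in adult HSCs, was in fewer cells of both PLT mice than of any other mouse. It was detected in 15.1% and 20.2% of the cells of PLT mice, 64.5% and 36% of PEM mice, and 44.9% and 45.9% of MUL mice. Mean levels were 31.2 and 15.1 RPKM in PLT mice, 99.1 and 39.4 RPKM in PEM mice, and 63.6 and 57.3 RPKM in MUL mice, again with no overlap of the PLT mice with the rest. Where Lyl1 was detected, its median was 134.1 and 59.4 RPKM in PLT mice, 139.7 and 90.4 RPKM in PEM mice, and 141.5 and 111.0 RPKM in MUL mice. PLT mouse 1 was thus within the range of the other groups once cells without Lyl1 were left out, and PLT mouse 2 was the lowest of the 6.

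Gfi1b, a repressor that binds DNA and recruits histone-modifying enzymes in megakaryocyte and erythroid precursors, was in close to equal shares of the cells of both PEM mice and in a smaller share elsewhere. It was detected in 7.53% and 32.1% of the cells of PLT mice, 49.5% and 52% of PEM mice, and 32.1% and 11.8% of MUL mice. Mean levels were 22.8 and 74.3 RPKM in PLT mice, 127.6 and 209.7 RPKM in PEM mice, and 112.1 and 34.3 RPKM in MUL mice. The PEM mice were above all 4 others in both measures, and the PLT and MUL mice overlapped. The share of PEM mouse 2 joins unlike plates, with Gfi1b in 10 of 14 cells of the first and 3 of 11 of the second. In the second plate alone, PEM mouse 2 was at 27.3% and MUL mouse 1 at 31.4%. In PEM mouse 2 a single cell with 2143 RPKM gave 40.9% of the summed Gfi1b. Among detecting cells the median was highest, at about the same value, in PLT mouse 1 (339.7 RPKM) and MUL mouse 2 (339.7 RPKM), the mice with the smallest shares.

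Runx1, the factor that HSCs need to form and that later represses erythroid genes in megakaryocytes, was in 25.8% and 36.9% of the cells of PLT mice, 33.3% and 44% of PEM mice, and 15.4% and 29.4% of MUL mice. Its mean level was 16.6 and 10.7 RPKM in PLT mice, 10.6 and 9.44 RPKM in PEM mice, and 5.50 and 10.3 RPKM in MUL mice. In level the PLT mice were above the rest, but PLT mouse 2 exceeded PEM mouse 1 and MUL mouse 2 by less than the gap between the mice of its own group.

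Fli1, an ETS factor that activates platelet glycoprotein genes, was detected in 94.6% and 92.9% of the cells of PLT mice, 91.4% and 64% of PEM mice, and 85.9% and 82.4% of MUL mice. Its mean level was 255.9 and 160.6 RPKM in PLT mice, 115.1 and 83.0 RPKM in PEM mice, and 145.5 and 85.3 RPKM in MUL mice. Both PLT mice were above the other 4 in both measures. Among detecting cells the median was 204.8 and 133.8 RPKM in PLT mice, 97.4 and 127.4 RPKM in PEM mice, and 117.2 and 76.6 RPKM in MUL mice. The low share of PEM mouse 2 came with a difference between its 2 sorted plates. Fli1 was in 13 of 14 cells of the first and 3 of 11 of the second. In this mouse the gap was not particular to Fli1. Gata1 was in 7 of 14 and 2 of 11 cells, Gata2 in 10 of 14 and 3 of 11, and Tal1 in 6 of 14 and 1 of 11. Lyl1 was in 5 of 14 and 4 of 11, without such a gap.

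Nfe2, the large subunit of the NF-E2 complex that switches on genes of platelet release, was in 59.1% and 75% of the cells of PLT mice, 95.7% and 80% of PEM mice, and 88.5% and 100% of MUL mice. Mean levels were 205.4 and 121.5 RPKM in PLT mice, 340.7 and 238.8 RPKM in PEM mice, and 336.3 and 518.5 RPKM in MUL mice. Both PLT mice were below the other 4 in both measures, the reverse of Fli1. The cells of most mice split into a high and a low set. In MUL mouse 2, where Nfe2 was at 1 RPKM or more in 85 of 85 cells, 83.5% were at 10 RPKM or more, against 57.7% in MUL mouse 1, 83.9% and 68% in PEM mice, and 38.7% and 53.6% in PLT mice.

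**Figure D2:**
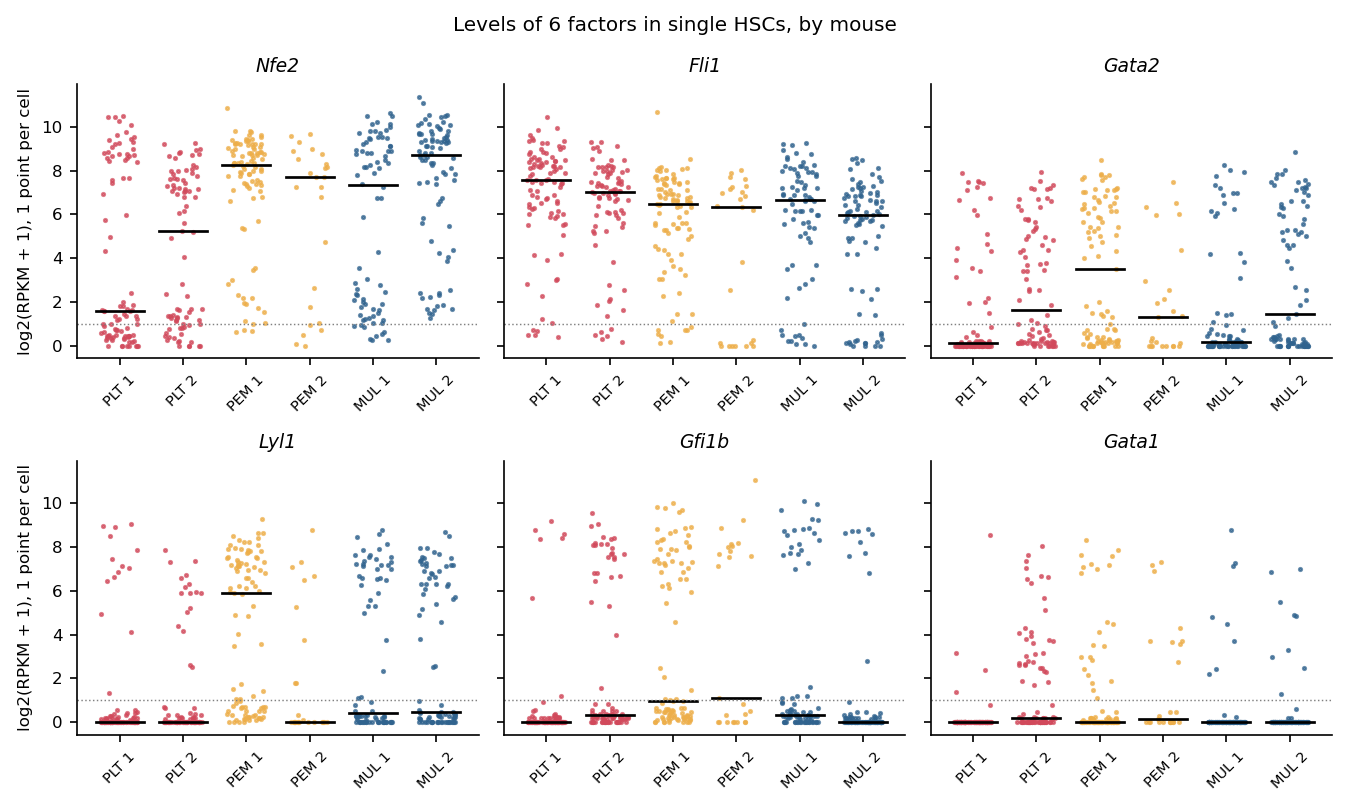
Level of 6 factors in single cells as log2(RPKM + 1) (y axis), by mouse, with PLT in red, PEM in yellow and MUL in blue. Each point is a cell, the black bar is the median cell of a mouse and the dotted line is 1 RPKM. Nfe2 splits into a high and a low set of cells, and Gata1 is at or near 0 in the median cell of every mouse.

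Klf1, the activator of globin and red cell membrane genes, was the rarest factor, at 1 RPKM or more in 11 of 458 cells. These were 2 of 93 and 0 of 84 cells in PLT mice, 3 of 93 and 2 of 25 in PEM mice, and 3 of 78 and 1 of 85 in MUL mice. A count of 0 in the 84 cells of PLT mouse 2 allows a share of up to 3.57% by a floor of 3 counts, and the exact intervals of the 6 mice overlap. Cells that held Klf1 held much of it: 3 cells had 2114 and 1694 RPKM (MUL mouse 1) and 1552 RPKM (PEM mouse 2), and the lowest of the 11 had 46.2 RPKM. At least 3 mature erythroid markers were in 5 of the 11 cells, against 6 of the 447 cells without Klf1. Those 5 cells held 22 to 29 of the 35 erythroid target genes, while the other 6 held 5 to 12. Without the cells that carried 3 mature erythroid or neutrophil markers, mean Klf1 was 2.84 and 0 RPKM in PLT mice, 2.95 and 6.24 RPKM in PEM mice, and 2.33 and 0.0090 RPKM in MUL mice, against 3.86 and 0, 2.85 and 67.1, and 51.1 and 3.35 RPKM with them. Gata1 in MUL mouse 1 was 2.96 RPKM without them and 10.3 RPKM with them, and Gfi1b in PEM mouse 2 was 145.5 RPKM without and 209.7 RPKM with them.

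The number of the 10 factors in a cell averaged 2.53 and 4 in PLT mice, 4.82 and 4.04 in PEM mice, and 3.38 and 3.65 in MUL mice. At least 5 factors were found in 3.23% and 39.3% of the cells of PLT mice, 52.7% and 48% of PEM mice, and 21.8% and 22.4% of MUL mice. Both PEM mice were above both MUL mice, and the PLT mice lay on both sides of MUL. This number moved with the count of detected genes of a cell, with a within-mouse Spearman rho of 0.42 to 0.68 over 25 to 93 cells. The order of the 6 mice in this number was that of their median detected genes, and the part of detection in these shares was not tested.

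The 3 comparisons between reconstitution types ask whether these factors differ between HSC clones of different fate. Each was fitted with limma over the 6 mouse means of 11337 genes, on log2(mean RPKM + 1) and on arcsine square-root shares of detecting cells. No factor passed an adjusted p of 0.05 in either measure: 0 of 10 in each comparison. Over all genes, the percentage called in level was 0.00882% for PLT against MUL (1 gene), 0% for PEM against MUL and 0% for PLT against PEM, and in share 0% for all 3. At an unadjusted limma p under 0.05, level counted 2 factors for PLT against MUL, where 8.41% of all genes were at that p, 0 for PEM against MUL (5.59%) and 3 for PLT against PEM (8.37%). Share counted 2 factors (3.26%), 0 (4.13%) and 2 (10.3%) in the same order. With 2 mice in each group, the smallest two-sided p of an exact permutation test is 0.33, so none is given for single factors.

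**Figure D3:**
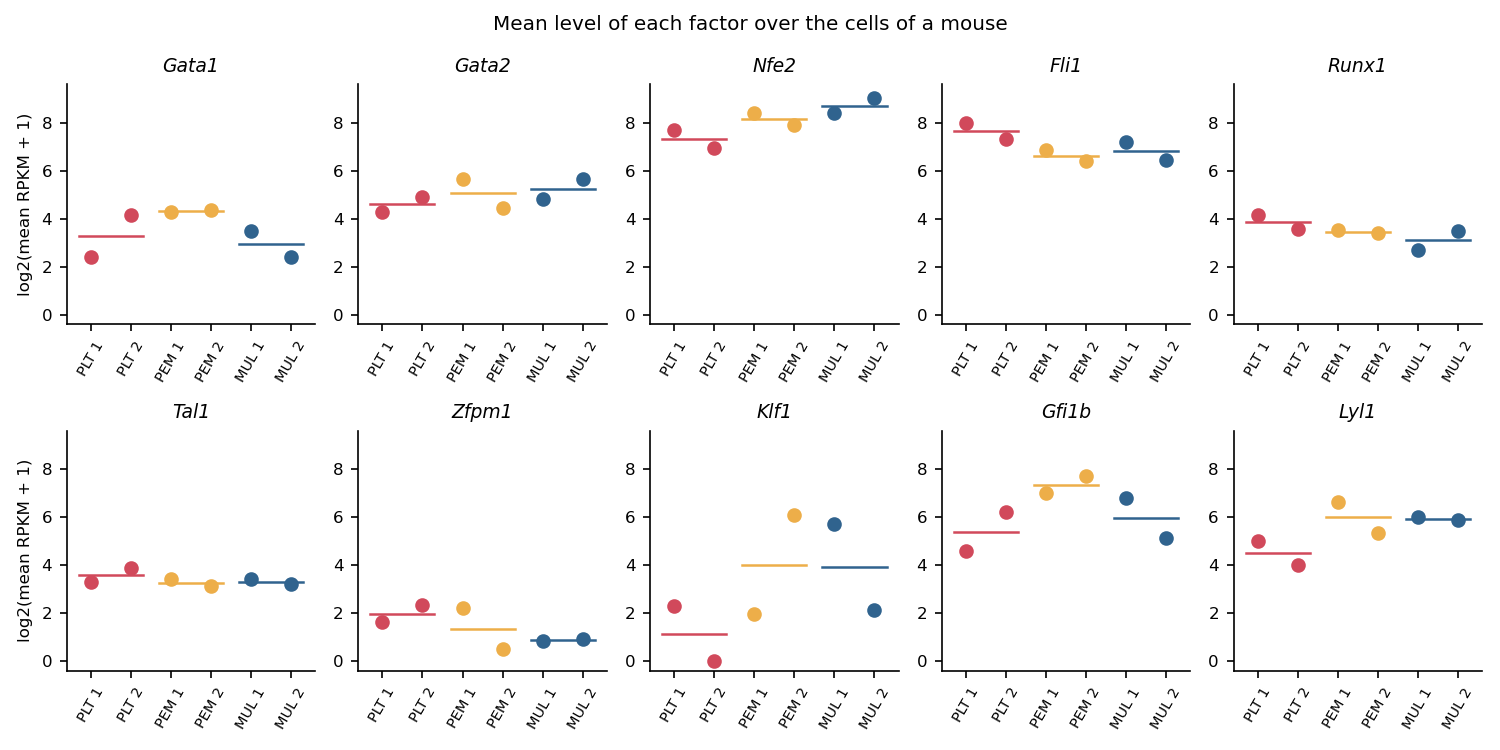
Mean level of each factor as log2(mean RPKM + 1) (y axis), 1 point per mouse, with PLT in red, PEM in yellow and MUL in blue. Lines are the means of the 2 mice of a group. Nfe2 and Lyl1 are lower and Fli1 is higher in both PLT mice than in the other 4, and Gfi1b is highest in the 2 PEM mice.

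For PLT against MUL, the levels of 5 of 10 factors did not overlap between the mice, 3 higher and 2 lower in PLT. Over all genes tested, 39.7% did not overlap (14.8% higher and 24.9% lower in PLT), so the count for the factors is near that background. Nfe2 had a log2 fold change of -1.40 ± 0.40 (SE, unadjusted p = 0.0072, adjusted p = 0.48 by limma with Benjamini-Hochberg adjustment) and was lower in 2 of 2 PLT mice. Lyl1 had -1.43 ± 0.58 (limma adjusted p = 0.57). Fli1 had 0.86 ± 0.42, Zfpm1 1.08 ± 0.83 and Runx1 0.75 ± 0.67, with limma adjusted p-values of 0.63 to 0.81. With 1 mouse left out at a time, Nfe2 ran from -1.77 to -1.02 and Lyl1 from -1.93 (without PLT mouse 1) to -0.93 (without PLT mouse 2). Fli1 ran from 0.48 (without MUL mouse 2) to 1.24, with 0.52 without PLT mouse 1, and Zfpm1 from 0.72 (without PLT mouse 2) to 1.44. Runx1 ran from 0.35 (without MUL mouse 1) to 1.14, with 0.45 without PLT mouse 1, and was -0.19 in plate P2 alone. The median log2 fold change was -0.14 over the 10 factors and -0.18 over all genes. In share of cells, 3 factors did not overlap (Fli1 higher, Nfe2 and Lyl1 lower in PLT), against 29.4% of all genes, 7.32% higher and 22.1% lower in PLT.

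For PEM against MUL, 35.7% of all genes did not overlap in level (17.5% higher and 18.3% lower in PEM). Of the 10 factors 2 did not overlap, both higher in PEM. These were Gata1, with a log2 fold change of 1.39 ± 0.80, and Gfi1b, with 1.38 ± 0.70 (limma adjusted p = 0.89 and 0.87). Leaving out 1 mouse at a time gave 0.84 to 1.93 for Gata1 and 0.54 to 2.22 for Gfi1b, lowest without MUL mouse 2 and highest without MUL mouse 1 for both. In share, Gata1, Runx1, Tal1 and Gfi1b did not overlap and were higher in PEM, against 36.7% of all genes in that direction and 42.7% in either. In plate P2 alone and in cells with 1800 to 3000 detected genes, the level of Gata1 turned to -0.24 and -0.20, each with 11 cells of PEM mouse 2. Of the cells with 1800 to 3000 detected genes, only 1 of 36 in PEM mouse 1 and 2 of 11 in PEM mouse 2 held Gata1.

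For PLT against PEM, 6 of 10 factors did not overlap in level, against 36% of all genes (14.1% higher and 21.9% lower in PLT). Gfi1b had a log2 fold change of -1.96 ± 0.70, Lyl1 -1.48 ± 0.58, Gata1 -1.07 ± 0.80 and Nfe2 -0.85 ± 0.40, while Fli1 had 1.05 ± 0.42 and Runx1 0.38 ± 0.67. Their limma adjusted p-values ran from 0.56 to 0.90. With 1 mouse left out at a time, Gata1 ran from -1.95 (without PLT mouse 2) to -0.18 (without PLT mouse 1), and Gfi1b from -2.79 to -1.13 without the same mice. Lyl1 ran from -2.14 (without PEM mouse 2) to -0.82 (without PEM mouse 1), and Nfe2 from -1.22 (without PLT mouse 1) to -0.47 (without PLT mouse 2). Fli1 ran from 0.71 (without PLT mouse 1) to 1.38 and Runx1 from 0.09 (without PLT mouse 1) to 0.68. Runx1 was -0.22 with the mean of log2 values. The median was -0.65 over the 10 factors and -0.13 over all genes. In share, Nfe2, Gfi1b, Lyl1 and Klf1 were lower without overlap, against 34.2% of all genes in that direction, and Fli1 was higher, against 2.84%. In either direction it was 37.1% of all genes. In level, the log2 fold change of Gata1 turned to 1.91 in cells with 1800 to 3000 detected genes and to 0.64 in plate P2. The 1.91 rests on 1 cell with Gata1 in PEM mouse 1 and 2 in PEM mouse 2.

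The genes that these factors work with or act on were read from 3 lists. Of 33 partner factors (Ldb1, Lmo2, Cbfb, Hdac1 and the like), all tested, 0 passed in any comparison of levels. Of 30 megakaryocyte targets, 26 were tested and 0 passed, with a median log2 fold change of 0.25 for PLT against MUL, 0.76 for PEM against MUL and -0.52 for PLT against PEM. In PEM against MUL, 13 of the 26 did not overlap and were higher in PEM, 1 was lower, and over all genes the shares were 17.5% higher and 18.3% lower. Cells with at least 3 of 10 mature platelet markers made up 2.15% and 13.1% of the cells of PLT mice, 12.9% and 16% of PEM mice, and 2.56% and 2.35% of MUL mice. All 10 markers are also among the 30 megakaryocyte targets, so these shares are not independent of the count of targets. The part of such cells in that count was not tested. Of 35 erythroid targets, 27 were tested and 0 passed, with medians of -0.36, 0.32 and -0.71 in the same order. Medians over all genes were -0.18, -0.04 and -0.13.

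Single cells of a mouse share its clone, so how factors go together was read within each mouse and summarised over the 6. Over the 45 pairs of factors, the mean within-mouse Spearman rho had a median of 0.05, and 35 pairs were above 0. With 4119 genes found in at least 20% of cells on average, the medians for the single factors had a median of 0.04, so the typical pair of factors was near the value of a factor with genes at large. Cells of a mouse also differ in depth, and these values are descriptions over 25 to 93 cells per mouse.

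Gata1 with Gfi1b had the highest mean rho of the 45 pairs, 0.22 ± 0.18 (SD over 6 mice), before detected genes and reads were taken out. It was 0.19 and 0.21 in PLT mice, 0.29 and 0.44 in PEM mice, and 0.26 and -0.09 in MUL mice, so 5 of 6 were positive. Both were in 50 cells, where the product of their shares within each mouse gives 30.9. With the number of detected genes and mapped reads taken out, the mean rho was 0.12, and 5 other pairs were above it: Gata1 with Klf1 and with Zfpm1 at 0.17 each, Runx1 with Gfi1b at 0.16, Gfi1b with Lyl1 at 0.15 and Gata1 with Fli1 at 0.13. In cells with 1800 to 3000 detected genes Gata1 with Gfi1b was at 0.10. Gata1 and its cofactor Zfpm1 had a mean rho of 0.20 ± 0.14 and shared 28 cells, against 15.4 from the product of shares. Their rho was -0.01 and 0.11 in PLT mice, 0.13 and 0.31 in PEM mice, and 0.34 and 0.33 in MUL mice. It was 0.17 with detected genes and reads taken out, and 0.06 in cells with 1800 to 3000 detected genes.

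Runx1 with Gfi1b (0.20 ± 0.14) and Gfi1b with Lyl1 (0.20 ± 0.19) were positive in 6 of 6 mice. Runx1 and Gfi1b shared 51 cells, against 39.6 from the product of shares, and Gfi1b and Lyl1 shared 77, against 56.7. In cells with 1800 to 3000 detected genes the mean rho was 0.22 and 0.20. With detected genes and reads taken out it was 0.16 (positive in 6 of 6 mice) and 0.15 (in 4 of 6), and without PEM mouse 2 it was 0.15 and 0.13. Gfi1b was in 3 of the 4 highest pairs before detected genes and reads were taken out.

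Gata1 and Klf1 shared 10 of the 11 Klf1 cells, against 1.96 from the product of shares, and the mean rho was 0.17 ± 0.13 over the 5 mice with Klf1. Gata1 was in 90.9% of cells with Klf1 and in 17.2% of the rest. Without cells that carried mature markers the mean rho was 0.07. The lowest of the 45 pairs was Gata2 with Klf1, at -0.09 ± 0.25, and it was 0.01 without PEM mouse 2. Fli1 with Klf1 was at -0.02 ± 0.15, and 9 of the 11 Klf1 cells held Fli1, against 9.31 from the product of shares. Gata1 with Gata2 was at 0.07 ± 0.09 and at -0.05 with detected genes and reads taken out.

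**Figure D4:**
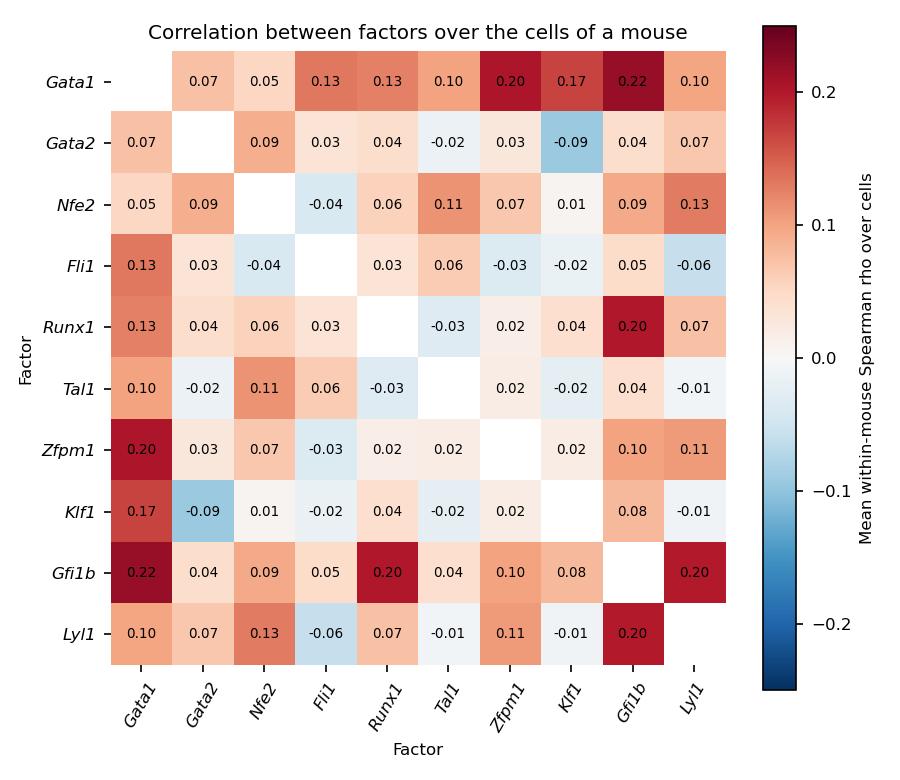
Mean over mice of the within-mouse Spearman rho between factors, over the cells of a mouse (colour and number). Detected genes and reads are not taken out. Pairs with Gata1 or Gfi1b hold the highest values, up to 0.22, and Gata2 with Klf1 holds the lowest, -0.09.

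Of the megakaryocyte targets, 2 platelet receptor genes went with Gata1 most. Itga2b encodes CD41, the alpha chain of the platelet fibrinogen receptor, and Gp1bb a chain of the receptor for von Willebrand factor. Each had a mean within-mouse rho of 0.40 with Gata1, positive in 6 of 6 mice, and of 0.31 and 0.33 with detected genes and reads taken out. Itga2b was in 2 of 4 cells with Gata1 and 0 of 89 cells without it in PLT mouse 1, and in 5 of 34 and 6 of 50 in PLT mouse 2. In PEM mice it was in 17 of 23 with and 8 of 70 without, and in 6 of 9 and 3 of 16. In MUL mice it was in 3 of 8 and 10 of 70, and in 5 of 9 and 4 of 76. PLT mouse 2, which had the most cells with Gata1, was the mouse where Itga2b differed least. Gp1bb was in 13 of 34 cells with Gata1 there and in 3 of 50 without.

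**Figure D5:**
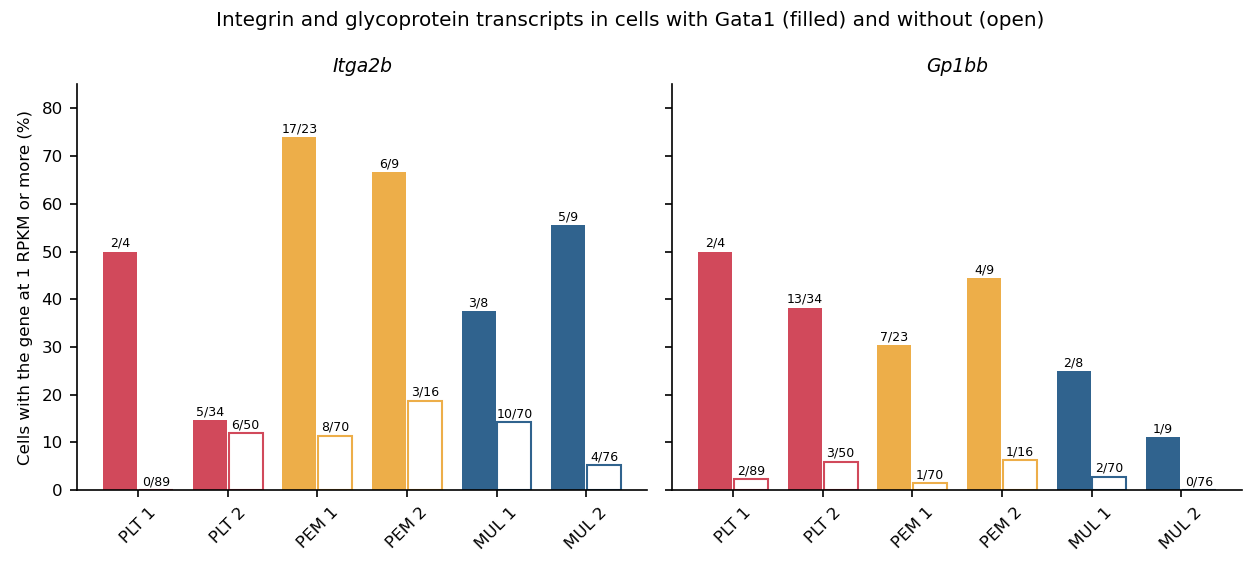
Percent of cells with Itga2b (left) and Gp1bb (right) at 1 RPKM or more among cells with Gata1 (filled bars) and without Gata1 (open bars), by mouse, with PLT in red, PEM in yellow and MUL in blue. Numbers over bars are cells with the gene over all cells of that bar. Itga2b is in 17 of 23 cells with Gata1 and 8 of 70 without in PEM mouse 1.

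Over the lists, Gata1 had a positive mean rho with 33 of 33 erythroid targets that had values (median 0.15), with 24 of 29 megakaryocyte targets (median 0.15) and with 20 of 20 cell cycle genes (median 0.28), while the median over all genes was 0.08. With detected genes and reads taken out, the medians were 0.13, 0.08 and 0.16, and over all genes 0.01. Without the cells that carried mature markers, the median of Gata1 over the erythroid targets was 0.06, with 24 of 33 above 0. Among erythroid targets the highest were Tmod1 (5 of 5 mice) and Aqp1 (6 of 6), at 0.30 each. Tmod1 is a cap of actin filaments in the red cell skeleton, and Aqp1 a water channel of the red cell membrane. They were at 1 RPKM or more in only 14 and 24 cells. Cells with Gata1 held a mean of 9.25 and 11.3 of the 20 cell cycle genes in PLT mice, 12.2 and 12.4 in PEM mice, and 12.5 and 11.7 in MUL mice. Cells without Gata1 held 3.87 and 7.06 in PLT mice, 5.94 and 5.06 in PEM mice, and 4.93 and 4.68 in MUL mice. Cells with Gata1 also had more detected genes in 6 of 6 mice, such as a median of 3754 against 2987 in PEM mouse 1. In cells with 1800 to 3000 detected genes, those with Gata1 held 9 (3 cells) and 8.33 of the cell cycle genes in PLT mice, 3 (1 cell) and 9 (2 cells) in PEM mice, and 9.2 and 8.5 (2 cells) in MUL mice. Those without held 4.77 and 6.16 in PLT mice, 4.11 and 4.33 in PEM mice, and 5.17 and 3.77 in MUL mice. The count was thus higher with Gata1 in 5 of 6 mice, on few cells, and lower in PEM mouse 1. Mecom, a regulator of HSC quiescence, had the lowest value among partner factors with Gata1, -0.14, and was negative in 4 of 6 mice.

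The mean rho of Klf1 had a median of 0.23 over 33 erythroid targets, with 31 above 0, against -0.01 over all genes. It was taken over all cells of each of up to 5 mice. Klf1 was at 1 RPKM or more in only 11 of these cells, and above 0 but lower in 27. Without the cells that carried 3 mature erythroid or neutrophil markers, an alternative added after seeing the data, 6 cells with Klf1 remained and the median was 0.16, with 28 of 33 above 0. Kel and Rhd, which encode red cell blood group proteins, were highest at 0.64 and 0.55 (4 of 4 mice each). They were at 1 RPKM or more in only 8 and 11 cells. Kel was in 5 of the 11 cells with Klf1, all 5 of which carried mature markers, and in 1 of 91 and 2 of 84 of the cells without it in PLT mice and in none of the others.

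Gfi1b had the same 2 highest megakaryocyte targets as Gata1, Itga2b at 0.25 and Gp1bb at 0.20, each positive in 5 of 6 mice. Its lowest megakaryocyte targets were Clec1b at -0.16 (7 cells, positive in 0 of 4 mice) and Mmrn1 at -0.11 (1 of 3). The medians of Gfi1b were 0.07 over megakaryocyte and 0.06 over erythroid targets, near the 0.055 over all genes. With detected genes and reads taken out, they were 0.03, 0.06 and 0.01. Epor, the erythropoietin receptor, was at 0.19 and positive in 6 of 6 mice. The median of Gfi1b over the cell cycle genes was 0.15, with 20 of 20 above 0, and 0.06 with 18 of 20 above 0 when detected genes and reads were taken out. Bach1, a repressor that competes at NF-E2 sites, was lowest among partner factors, at -0.18. It was at 1 RPKM or more in only 28 cells, and its rho ran from -0.50 to 0.21 over the mice.

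Fli1 had its highest megakaryocyte target values with Pf4, platelet factor 4, at 0.19, and Gp1bb at 0.18, each positive in 5 of 6 mice. Its lowest erythroid target was Ank1, the red cell ankyrin, at -0.15, negative in 5 of 5 mice. Ank1 was at 1 RPKM or more in only 6 of the 458 cells, so these values rest on few cells. Of 33 erythroid targets 11 were above 0, against 25 of 29 megakaryocyte targets. The medians of Fli1 were small, at -0.02 over erythroid and 0.06 over megakaryocyte targets, against 0.03 over all genes. Zfpm1 was below 0 in 6 of 6 mice with the ETS factor Ets1 (-0.17) and the stem cell homeobox gene Meis1 (-0.14). Tal1 was below 0 in 6 of 6 mice with its partner Lmo2, at -0.13. Runx1 was at 0.14 with Cbfb, which encodes its partner subunit, positive in 6 of 6 mice, and at 0.06 with detected genes and reads taken out. Gata2 was at 0.16 with Cbfa2t3, a corepressor of Tal1 complexes, in 6 of 6 mice. For Nfe2 no gene of the 3 lists exceeded 0.13, among those at 1 RPKM or more in at least 5 cells.

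For the 4 factors in the most cells, the genes most like them over single cells were named from 4118 genes found in at least 20% of cells. Fli1 was most like Pdcd4 (mean rho 0.33 ± 0.16, 6 of 6 mice), followed by Prrc2c and Alkbh5 at 0.22 each. Nfe2 was most like Zc3h7a at 0.24, Tomm22 and Dpf2 at 0.23 each. Gata2 was most like Timm50 and Csgalnact1 at 0.24 each, and Kit, the stem cell factor receptor, at 0.23. Lyl1 was most like 3 histone H2B genes, Hist1h2bc at 0.26, Hist1h2be and Hist1h2ba at 0.24 each. Reads may be shared among genes of this family, which was not tested. None of these values is large, and the highest among all genes for the 4 factors is by choice the first named.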

How the data were processed

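Per the labels' protocols, cDNA of single cells was amplified and sequenced after the SMARTer Ultra Low method. The deposited table holds RPKM values made by the authors. TopHat, featureCounts and mm10 are named in the submitters' processing notes, and no version is given in the sources used here. A second table gives each cell's count of mapped reads and of detected genes, mouse and status, per the file headers, and the mitochondrial percent of its reads, as deposited by the authors. No cell was filtered and no doublet caller was run. The 10 factors and all gene lists were chosen with earlier results of these data known.

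The cells of a mouse were reduced to their mean RPKM, tested as log2(mean RPKM + 1), which understates fold changes of low genes. The fit held the 11337 genes whose mean reached 1 RPKM in 2 or more of 6 mice, all 10 factors among them, and used limma 3.58.1 in R 4.3.3, with 1 mean per group and Benjamini-Hochberg adjustment at 0.05. A second limma fit used the arcsine square root of the share of cells at 1 RPKM or more. Each p-value used how far the 2 mice of a group differed, not how cells differed within a mouse. It also used variance that limma shared across all fitted genes. With this sharing, the degrees of freedom of a gene were 8.33 in level and 6.05 in share, against 3 from its own mice. Cells were never used as replicates, and correlations over cells carry no p-value. Scripts were tested on simulated data. The 10 factors are always named. Genes of the partner, megakaryocyte and erythroid lists are named where they pass a test or hold the 2 highest or 2 lowest mean rho with a factor, and the 3 genes most like a factor for the 4 factors in the most cells. Genes of these 3 lists found in very few cells were left out of the ranking by rho. No paper was used.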

Additional observations from a re-analysis of the deposited data

How the results depend on the processing

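No factor was called under any alternative of the level (17 alternatives, lowest adjusted p of a factor 0.35 by limma) or of the share of cells (11 alternatives, lowest 0.21). At a minimum of 5 RPKM, Zfpm1 was not tested. With no filter on low values, 19, 9 and 4 genes passed for PLT against MUL, PEM against MUL and PLT against PEM, none of them among the 10 factors. The median log2 fold change of all genes for PLT against MUL was -0.04 under median-ratio scaling and 0.03 under quantile scaling, against -0.18. For PLT against PEM it was -0.01 and 0.02, against -0.13, and no factor without overlap changed direction under either. Of 220 refitted log2 fold changes of factors without overlap between mice, 6 changed sign. In plate P2, Runx1 was at -0.19 for PLT against MUL, and Gata1 was at -0.24 for PEM against MUL and 0.64 for PLT against PEM. In cells with 1800 to 3000 detected genes, Gata1 was at -0.20 for PEM against MUL and 1.91 for PLT against PEM. PEM mice 1 and 2 had only 1 and 2 such cells with Gata1. With the mean of log2 values, Runx1 was at -0.22 for PLT against PEM. Of 132 refitted share differences, Klf1 for PLT against PEM changed sign in cells with 1800 to 3000 detected genes, to 0.068 on the arcsine scale. The cause was not tested. At 10 reads or more, a cutoff chosen after seeing the data, 30 of 30 differences in share stayed within 1 SD. Of 441 recomputed pair correlations, 6 moved by more than 1 SD between mice. For Gata1 with Klf1 it was 0.35 as Pearson's r and 0.04 in cells with 1800 to 3000 detected genes, an alternative added after seeing the data. No paired analysis was possible because the replicate numbers only name the mice, in accession order. With 2 mice a group, a p that misses the threshold does not show that a factor is alike between fates.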
